A study of Mus musculus with 18 samples.

Results

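Colons of Claudin-2TG mice given AOM-DSS were compared with colons of untreated WT mice, to describe which transcripts of the treated transgenic tissue lay away from naive levels. The comparison took the 3 transgenic and the 3 naive libraries, 6 of the 9 in the series, which stood in 12 of its 18 count columns because each library was sequenced on lanes 1 and 2. Naive mice (mice 1, 2 and 3) were WT mice labelled Control. Claudin-2TG mice (mice 7, 8 and 9), called Cldn2TG CAC mice, carried a claudin-2 transgene that the Villin promoter drives in the intestinal epithelium, and received 1 dose of AOM (azoxymethane, a carcinogen) at 10 mg/kg and 3 cycles of 2.5% DSS (dextran sulfate sodium, which injures the colon lining) to model colitis-associated cancer (CAC). WT mice labelled AOM-DSS (mice 4, 5 and 6), called WT CAC mice, received the same course and are given beside the compared groups. The study kept all lines on a C57BL/6 background with littermate controls, and gave no age for these samples. Genotype and treatment differed together between the compared groups. Since no transgenic mice without AOM-DSS were analysed here, the part of the transgene and the part of the treatment in a difference cannot be told apart.

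A colon sample holds several layers. The lining epithelium absorbs water and secretes mucus, and rests on connective tissue with capillaries. Beneath lie sheets of smooth muscle, whose cells contract through actin and myosin filaments, and the neurons and glia of the enteric nervous system, which set their rhythm. Capillaries are lined with endothelial cells and wrapped by pericytes, contractile cells related to smooth muscle that sit on a shared sheet of collagen and laminin. Chronic injury of the colon is known to bring immune cells into these layers and to alter the matrix between them.

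The 6 compared libraries held 14871987 to 22103851 counts. Levels are given as CPM, counts scaled to a common library size. Reads of the mitochondrial genome took 2.86% to 3.5% of the counts in naive mice and 4.57% to 5.76% in Cldn2TG CAC mice. In a principal component analysis of all 9 mice, component 1 (51.6% of the variance) put naive mice between -43.1 and -26.5, Cldn2TG CAC mice between -35.7 and -24.7, and WT CAC mice between 26.8 and 87.8. Component 2 (17.4%) separated naive mice (23.4 to 41) from Cldn2TG CAC mice (-40 to -22.5). Naive mouse 1 had an Xist level of 214 CPM, against at most 0.203 CPM in the other 8 mice, so the naive group held 1 female and no other group did. Cldn2 itself lay at 191, 259 and 245 CPM in naive mice and at 208, 218 and 251 CPM in Cldn2TG CAC mice, a log2 fold change of -0.03 ± 0.12 (SE, n = 3 and 3; 95% interval -0.30 to 0.24). WT CAC mice had 119, 137 and 132 CPM of Cldn2, and Cldn2TG CAC mice lay above them (0.78 ± 0.12, edgeR adjusted p = 0.0103), a call that was lost without mouse 8 (adjusted p = 0.058) or mouse 9 (0.0597). The count file does not separate transgene RNA from the mouse's own Cldn2 RNA.

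Of 15013 genes tested, 589 were higher in Cldn2TG CAC than in naive colon and 912 were lower, at an adjusted p under 0.05 by edgeR's quasi-likelihood test. These were 3.92% and 6.07% of the genes tested. The lower genes were displaced further. Their median log2 fold change was -1.23 and 590 of them differed by at least 1 on the log2 scale, against a median of 0.55 and 93 genes of that size among the higher genes. At a log2 change of at least 2, there were 147 lower genes and 10 higher ones. Across all genes tested the median log2 fold change was 0.00, and for 11157 genes (74.3%) the 95% interval lay within 1 of naive levels on the log2 scale. Groups of mice did not overlap for 2241 genes in the higher direction (14.9%) and 2446 in the lower direction (16.3%), called or not. Scaled by library size alone, without trimmed-mean normalisation, 276 genes were higher and 1310 lower, and the median of all genes moved by -0.11 on the log2 scale. The 1501 calls became 525 without naive mouse 3, 615 without Cldn2TG CAC mouse 8, 813 without mouse 9 and 958 without naive mouse 1, and the 589 higher genes became 301 without naive mouse 2. With 3 mice against 3, an exact permutation test of a single value cannot give a p below 0.1.

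**Figure D1:**
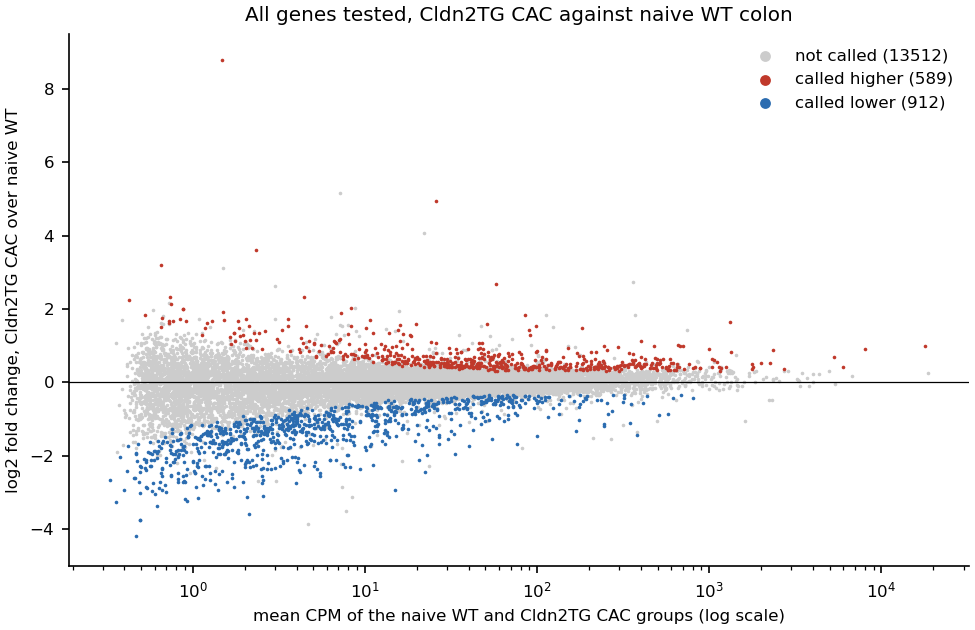
Log2 fold change of Cldn2TG CAC over naive WT colon (vertical axis) against the mean CPM of both groups (horizontal axis, log scale) for each of the 15013 genes tested. Red points are the 589 genes called higher, blue points the 912 called lower and grey points genes not called, and blue points reach further from 0 than most red ones.

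Smooth muscle genes were lower in the treated transgenic colon. Acta2, the smooth muscle actin, was measured at 710, 402 and 555 CPM in naive mice and at 218, 234 and 167 CPM in Cldn2TG CAC mice. Every transgenic mouse lay under every naive mouse, and the log2 fold change was -1.43 ± 0.22 (SE, adjusted p = 0.00988). Lmod1, a leiomodin that starts actin filaments in smooth muscle, gave 28.6, 27 and 33 CPM in naive mice against 12.4, 12.3 and 8.57 CPM (-1.40 ± 0.16, adjusted p = 0.00135). Smtn, which binds actin in contractile cells, gave 105, 84.7 and 107 CPM against 58.5, 58.6 and 43.2 CPM (-0.88 ± 0.14, adjusted p = 0.00574). In both genes the groups were separate, with mouse 9 lowest. Myh11, the smooth muscle myosin heavy chain, gave 499, 359 and 551 CPM against 206, 281 and 167 CPM (-1.10 ± 0.22, adjusted p = 0.0224), and its call was lost without naive mouse 1 (adjusted p = 0.0584), naive mouse 3 (0.0817) or Cldn2TG CAC mouse 7 (0.0836). In bulk tissue, fewer cells of a type and less RNA per cell cannot be told apart.

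All 30 genes of the smooth muscle contractile list passed the filter on low counts. Of these, 20 fell, against 6.07% of all genes, none rose, and the groups did not overlap in the lower direction for 26, against 16.3% of all genes. Their median log2 fold change was -1.03, against 0.00 over all genes. Tagln, Des, Cnn1 and Actg2 did not pass the test although their groups did not overlap. Their log2 fold changes were -1.04 (95% interval -1.68 to -0.39), -1.35 (-2.18 to -0.51), -1.52 (-2.50 to -0.53) and -1.53 (-2.86 to -0.20). The list's summed level was 4310 to 7470 CPM in naive mice, 2420 to 3350 CPM in Cldn2TG CAC mice and 2870 to 5840 CPM in WT CAC mice. In WT CAC against naive colon, a comparison that shares the naive mice, no member of the list was called and its median was -0.73, where 8.04% of 15437 genes tested were higher and 6.92% lower. Calls in that WT CAC comparison numbered 2310, and between 135 without naive mouse 2 and 4080 without WT CAC mouse 4, so that its counts here are side values only. The difference between the treated groups themselves did not pass the test for Acta2 (-0.48 ± 0.33, adjusted p = 0.46) or Lmod1 (-0.46 ± 0.33, adjusted p = 0.488). The 20 calls became 7 without naive mouse 3 and 9 without Cldn2TG CAC mouse 7. With all 9 mice in 1 fit, whose spread includes the wider WT CAC group, 3 members were called, Lmod1 among them, and the adjusted p became 0.0577 for Acta2 and 0.0784 for Smtn.

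Regulators of the contractile genes were read as a list of their own. Srf, the factor that binds the CArG box of many muscle genes, lay at 65.7, 68.5 and 67.2 CPM in naive mice and at 75.8, 64.4 and 70.4 CPM in Cldn2TG CAC mice, so that the groups overlapped (0.07, 95% interval -0.14 to 0.28). For Myocd, its smooth muscle cofactor, the log2 fold change was -1.16 (95% interval -2.12 to -0.20, adjusted p = 0.123). Of 12 members of the SRF and myocardin list that passed the filter, 2 fell, Heyl and Foxf2, against 6.07% of all genes, 4 log2 fold changes lay above 0 and 1 gene had separate groups in the higher direction. Heyl, a Notch target of mural cells, dropped from 1.34, 1 and 1.04 CPM to 0.0689, 0.152 and 0.0739 CPM (-3.36 ± 0.49, adjusted p = 0.00413), levels that rest on few counts. Foxf2 changed by -1.61 on the log2 scale (adjusted p = 0.0158), and its call was lost without naive mouse 3 and without Cldn2TG CAC mice 8 or 9 (adjusted p = 0.0507 to 0.0678).

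Upstream sequences of 2 contractile genes that fell are printed because each holds a CArG box, the 10-base site named after its letters, here in capitals. The bases are the 250 before the start of each gene, 5′ to 3′ on the gene's strand, from RefSeq on GRCm38.p6, where 25 of the 30 list genes were found. Myl9, the regulatory myosin light chain, fell by 1.33 on the log2 scale (± 0.24, adjusted p = 0.0176) from 285, 180 and 261 CPM to 112, 108 and 68.3 CPM, and its call was lost without naive mouse 3 (adjusted p = 0.0726). Vcl, vinculin of the muscle's attachment plaques, fell by 0.57 (± 0.11, adjusted p = 0.00959; 0.114 with all 9 mice) from 44.3, 47.3 and 49.2 CPM to 34.3, 30.7 and 29.2 CPM. The Myl9 sequence lies at chr2:156775214-156775463 on the plus strand and the Vcl sequence at chr14:20929148-20929397 on the plus strand.
Myl9: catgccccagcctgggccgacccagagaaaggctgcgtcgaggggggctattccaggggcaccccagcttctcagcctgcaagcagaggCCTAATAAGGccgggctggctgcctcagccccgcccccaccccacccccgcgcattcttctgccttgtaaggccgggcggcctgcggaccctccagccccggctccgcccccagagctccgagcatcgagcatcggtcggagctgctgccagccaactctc
Vcl: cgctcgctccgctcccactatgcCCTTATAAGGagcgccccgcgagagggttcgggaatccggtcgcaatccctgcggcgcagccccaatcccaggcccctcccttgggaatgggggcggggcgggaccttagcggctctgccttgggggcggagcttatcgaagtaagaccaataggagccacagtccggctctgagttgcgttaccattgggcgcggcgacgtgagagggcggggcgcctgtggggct
The box was found on either strand in 3 of the 25 list genes (12%), Myl9, Vcl and Ldb3, and in 439 of 27025 genes of the RefSeq table (1.62%). Ldb3 holds a box and was not called (16.4, 21 and 23.6 CPM against 22.5, 26.2 and 25.7 CPM). A match is a description of letters and not evidence of binding.

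Channels, pumps and receptors of muscle were lower as well, 11 of 24 members that passed the filter against 6.07% of all genes, with none higher and a list median of -1.06. Jph2, which holds the calcium store against the cell membrane, gave 30.7, 23.7 and 28.9 CPM in naive mice and 14.1, 14.9 and 8.27 CPM in Cldn2TG CAC mice (-1.15 ± 0.21, adjusted p = 0.0107). Both subunits of the nitric oxide receptor guanylate cyclase, through which muscle relaxes, fell. Gucy1a1 went from 3.93, 3.57 and 5.69 CPM to 1.31, 1.32 and 1.77 CPM (-1.59 ± 0.28, adjusted p = 0.008). Gucy1b1 went from 3.83, 2.81 and 3.91 CPM to 1.10, 0.811 and 1.48 CPM (-1.65 ± 0.30, adjusted p = 0.00885). None of these groups overlapped. The summed level was 408 to 468 CPM in naive mice, 310 to 328 CPM in Cldn2TG CAC mice and 279 to 357 CPM in WT CAC mice. In WT CAC colon 5 members were lower and none higher, against 6.92% and 8.04% of all genes. The 11 calls became 4 without naive mouse 3, 5 without Cldn2TG CAC mouse 9, 6 without mouse 7, 7 without naive mouse 1 and 2 with all 9 mice, a fit in which the adjusted p of Jph2 was 0.087 and that of Gucy1a1 was 0.0525.

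Of 9 pericyte genes that passed the filter 6 fell, against 6.07% of all genes, with none higher and a median of -1.36. Rgs5, a pericyte regulator of G-protein signalling, lay at 36.4, 36.2 and 50.2 CPM in naive mice and at 15.8, 13.1 and 8.79 CPM in Cldn2TG CAC mice (-1.69 ± 0.21, adjusted p = 0.00337). WT CAC mice lay between them at 23.4, 22.9 and 18.1 CPM. Mcam, an adhesion molecule of mural and endothelial cells, gave 22.8, 14.9 and 20.4 CPM against 8.27, 8.56 and 5.54 CPM (-1.36 ± 0.21, adjusted p = 0.00518). Abcc9, a subunit of the pericyte potassium channel, gave 10.3, 10 and 12.6 CPM against 3.86, 5.27 and 2.81 CPM (-1.44 ± 0.23, adjusted p = 0.00551). The list summed to 94.7 to 121 CPM in naive mice, 63.3 to 74.5 CPM in WT CAC mice and 33.3 to 52.8 CPM in Cldn2TG CAC mice, 3 ranges that did not overlap. The test of Cldn2TG CAC against WT CAC did not pass for Rgs5 (-0.79 ± 0.23, adjusted p = 0.0632).

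Blood vessel lining genes were also lower, and here the WT CAC mice stood with the naive mice. Plvap, which forms the diaphragms of capillary pores, lay at 18, 17.3 and 19.8 CPM in naive mice and at 4.89, 2.48 and 4.21 CPM in Cldn2TG CAC mice, a 4.79-fold lower level (-2.26 ± 0.22, adjusted p = 0.000694). WT CAC mice had 15.1, 17.4 and 18.3 CPM. Cdh5, the cadherin of endothelial junctions, gave 5.62, 5.62 and 6.38 CPM against 1.65, 1.52 and 2.29 CPM (-1.69 ± 0.24, adjusted p = 0.00322), with 4.17, 8.71 and 5.42 CPM in WT CAC mice. Eng, a co-receptor for TGF-beta ligands, gave 7.86, 8.39 and 8.77 CPM against 2.89, 1.98 and 3.25 CPM (-1.63 ± 0.22, adjusted p = 0.00302). Flt1, a VEGF receptor, gave 2.99, 3.31 and 3.69 CPM against 1.17, 0.355 and 0.739 CPM (-2.17 ± 0.37, adjusted p = 0.00692). No Cldn2TG CAC mouse reached the lowest naive mouse for any of these genes. In the direct test of Cldn2TG CAC against WT CAC mice, Plvap was lower (-2.16 ± 0.27, adjusted p = 0.00661) whichever mouse was left out. Eng was lower too (-2.07 ± 0.29, adjusted p = 0.0082; 0.052 without mouse 8). Cdh5 (-1.77 ± 0.35, adjusted p = 0.018) lost that call without mice 5, 7, 8 or 9 (0.0569 to 0.0933), and Flt1 (-2.12 ± 0.45, adjusted p = 0.0235) without mice 5, 6, 8 or 9 (0.0687 to 0.105).

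Of 27 blood endothelium genes that passed the filter, 15 fell, against 6.07% of all genes, and none rose, with a median of -1.09, and 22 had separate groups in the lower direction, against 16.3% of all genes. The summed level of the list was 188 to 220 CPM in naive mice, 132 to 149 CPM in Cldn2TG CAC mice and 202 to 263 CPM in WT CAC mice. In WT CAC against naive colon, 2 of 29 members rose and none fell, against 8.04% and 6.92% of all genes, and the median was 0.25. Not every vessel gene moved in the transgenic colon. Aqp1, a water channel, gave 0.04 (95% interval -0.33 to 0.42) and Vwf, the clotting factor stored in endothelium, gave -0.14 (-0.58 to 0.30). Pecam1 fell by 0.91 (± 0.20, adjusted p = 0.0179), a call that was lost without naive mouse 2 (adjusted p = 0.0578) or Cldn2TG CAC mice 8 (0.0776) or 9 (0.0569). The 15 calls became 6 without Cldn2TG CAC mouse 8, 9 without naive mouse 2 or naive mouse 3, and 7 with all 9 mice, among them Plvap, Eng, Cdh5 and Flt1.

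Of 25 ligands and receptors of vessel growth that passed the filter, 2 rose and 3 fell, where 3.92% of all genes were higher and 6.07% lower, and the median was -0.11. Nrp2, a neuropilin receptor for VEGF and semaphorins, gave 51.8, 47.7 and 47.8 CPM in naive mice and 22.3, 19.9 and 23.9 CPM in Cldn2TG CAC mice (-1.15 ± 0.11, adjusted p = 0.000572), with 28.9, 22.2 and 19.8 CPM in WT CAC mice. Nrp1, its paralogue, gave 7.17, 8.34 and 10.1 CPM against 4, 2.28 and 2.36 CPM (-1.57 ± 0.26, adjusted p = 0.00586). Aplnr, the apelin receptor, was the other gene that fell (-2.10 ± 0.52, adjusted p = 0.029). The 2 genes that rose were both ligands. Vegfa gave 37.1, 41.6 and 36.4 CPM against 52.3, 58.8 and 46.2 CPM (0.46 ± 0.11, adjusted p = 0.0291), and Dll4, a Notch ligand, gave 16, 13.1 and 13.4 CPM against 22.6, 25.5 and 21.6 CPM (0.72 ± 0.14, adjusted p = 0.0105). Neither neuropilin call was lost without any 1 mouse, while Dll4 was lost without naive mouse 3 (adjusted p = 0.0502), Vegfa without mice 1, 3, 7 or 8 (0.0569 to 0.128) and Aplnr without the same 4 mice (0.0587 to 0.1). Of 8 lymphatic endothelium genes that passed the filter, Nr2f2 rose (0.56, adjusted p = 0.022) and Stab1 fell (-0.97, adjusted p = 0.0314), and both calls were lost without mice 2, 3, 8 or 9 (adjusted p = 0.0514 to 0.0987).

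**Figure D2:**
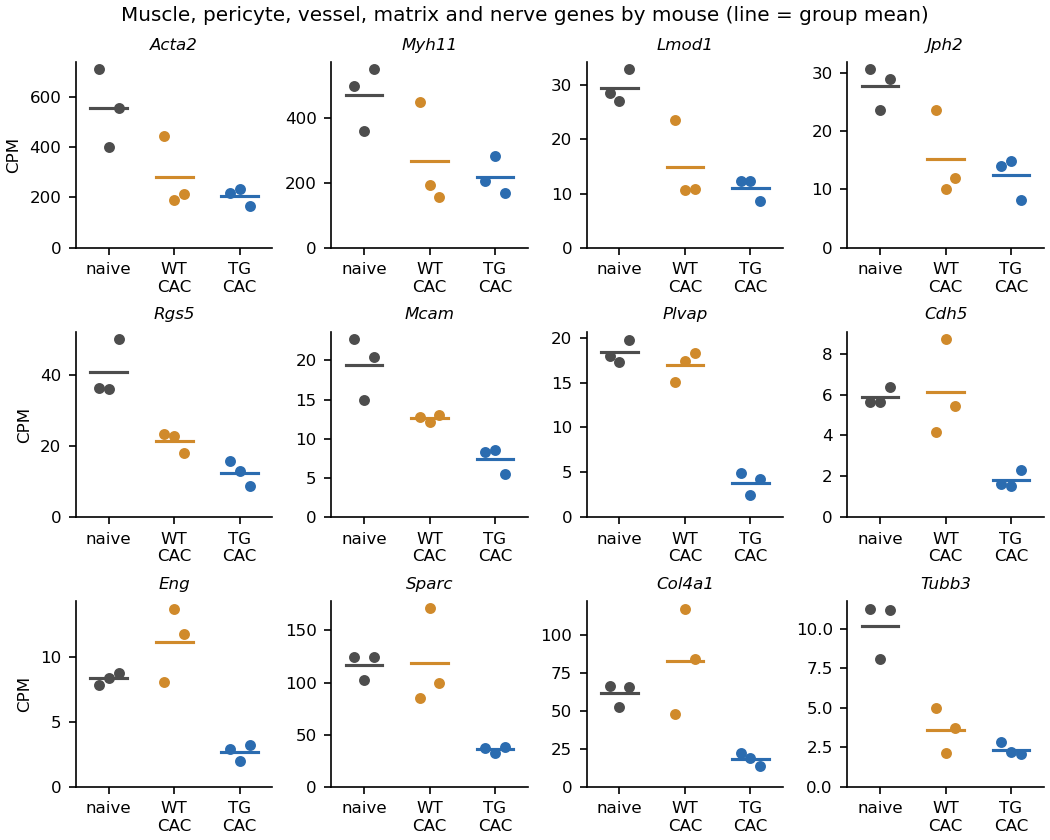
CPM of each mouse (points) and group mean (lines) for 12 genes of muscle, pericytes, vessels, matrix and nerve, in naive WT, WT CAC and Cldn2TG CAC colon, each panel with its own axis from 0. For Plvap, Cdh5, Eng, Sparc and Col4a1 the WT CAC mice lie at or above naive mice or overlap them while all 3 Cldn2TG CAC mice lie under both groups, and for Acta2, Myh11, Lmod1 and Jph2 WT CAC mouse 4 lies near naive levels and mice 5 and 6 near the Cldn2TG CAC mice.

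The matrix on which vessels and muscle sit was lower. Sparc, a collagen-binding matrix protein, had the smallest adjusted p of all lower genes. It lay at 124, 102 and 124 CPM in naive mice and at 37.3, 32.5 and 38.4 CPM in Cldn2TG CAC mice (-1.69 ± 0.12, adjusted p = 8.66e-05). WT CAC mice had 85, 171 and 99.6 CPM. The basement membrane collagen chain Col4a1 gave 66.5, 52.3 and 66 CPM against 22.5, 19.1 and 13.7 CPM (-1.73 ± 0.18, adjusted p = 0.00118), and its partner Col4a2 gave 42.5, 35.1 and 41.8 CPM against 16.7, 14.4 and 10.8 CPM (-1.50 ± 0.16, adjusted p = 0.000998). Eln, elastin, gave 18.2, 13.8 and 15.3 CPM against 4.82, 2.89 and 5.54 CPM (-1.85 ± 0.23, adjusted p = 0.00222). The groups were separate for all 4 genes. Cldn2TG CAC and WT CAC colon differed in the direct test for Sparc (-1.74 ± 0.25, adjusted p = 0.00881) and Col4a1 (-2.19 ± 0.33, adjusted p = 0.0118), calls that were lost without mouse 8 (0.0594 and 0.0671) or mouse 9 (0.0601 and 0.0649).

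Of 30 collagen and matrix genes that passed the filter, 20 fell, against 6.07% of all genes, none rose, and all 30 log2 fold changes were below 0 with a median of -1.02. Their summed level was 892 to 1180 CPM in naive mice, 452 to 571 CPM in Cldn2TG CAC mice and 1070 to 2130 CPM in WT CAC mice. In WT CAC colon 2 members were higher and 1 lower, against 8.04% and 6.92% of all genes. Col1a1 and Col3a1, the fibrillar collagens of scar tissue, were not called (-1.09, 95% interval -1.76 to -0.42, and -0.87, -1.49 to -0.25). Of 27 fibroblast markers 6 fell, against 6.07% of all genes, none rose and the median was -0.52. Among them Ogn, a small proteoglycan, fell from 23, 19.8 and 26.3 CPM to 9.78, 11.8 and 9.23 CPM (-1.15 ± 0.15, adjusted p = 0.0026). Grem1, a BMP antagonist of crypt-base muscle and stroma, fell from 20, 11.1 and 18.7 CPM to 3.58, 4.71 and 7.24 CPM (-1.68 ± 0.29, adjusted p = 0.0105; 0.0514 without Cldn2TG CAC mouse 8). The 20 matrix calls became 11 without naive mouse 3, 13 without Cldn2TG CAC mouse 8 and 11 with all 9 mice. The 6 fibroblast calls became 10 with no filter on low counts, 3 on lane 1 alone, 1 without Cldn2TG CAC mouse 8, 2 without naive mouse 1, naive mouse 3 or with all 9 mice, and 3 without mouse 9.

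Enteric nerve genes showed the lowest list medians. Tubb3, the neuronal tubulin, lay at 11.3, 8.13 and 11.2 CPM in naive mice and at 2.82, 2.18 and 2.07 CPM in Cldn2TG CAC mice (-2.11 ± 0.22, adjusted p = 0.000933). Syt1, the calcium sensor of synaptic vesicles, gave 7.51, 4.67 and 8.60 CPM against 1.38, 1.27 and 1.33 CPM (-2.38 ± 0.28, adjusted p = 0.00148). Dbh, which makes noradrenaline and marks sympathetic nerve cells, gave 5.37, 2.56 and 3.73 CPM against 0.689, 0.203 and 0.0739 CPM (-3.59 ± 0.54, adjusted p = 0.00569). Chrna3, a nicotinic receptor subunit of autonomic neurons, gave 5.32, 2.96 and 5.43 CPM against 0.896, 0.355 and 0.369 CPM (-3.09 ± 0.40, adjusted p = 0.00227). Naive mouse 2 was the lowest naive mouse for each of these genes and still lay above all Cldn2TG CAC mice. Ret, the receptor on which enteric neurons depend, gave 10.5, 7.33 and 12.2 CPM against 3.17, 2.99 and 2.59 CPM (-1.77 ± 0.23, adjusted p = 0.00227), and WT CAC mice had 6.96, 31.1 and 29.1 CPM. With all 9 mice in the fit the adjusted p of Ret was 0.087.

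Of 23 enteric neuron genes that passed the filter, 17 fell, against 6.07% of all genes, and none rose, with a median of -1.79. Leaving out any 1 mouse or changing the method left 12 to 18 calls. The summed level was 169 to 258 CPM in naive mice, 102 to 132 CPM in WT CAC mice and 63 to 89.8 CPM in Cldn2TG CAC mice. WT CAC mice had 11 members lower and none higher, against 6.92% and 8.04% of all genes. Of 8 enteric glia genes, 7 fell, against the same 6.07%, with a list median of -1.93. Cryab, a small heat shock protein, gave 17.3, 9.99 and 10.6 CPM against 3.44, 2.64 and 3.47 CPM (-1.99 ± 0.25, adjusted p = 0.00222). Gfap, a glial filament protein, gave 4.18, 1.91 and 2.52 CPM against 0.482, 0.912 and 0.443 CPM (-2.16 ± 0.41, adjusted p = 0.0102; 0.0784 with all 9 mice). Erbb3, which the epithelium also expresses and which was not called, made up most of the list's summed level, so that sum did not separate the groups (297 to 410 CPM against 316 to 520 CPM). The 7 glial calls became 2 without naive mouse 3 or Cldn2TG CAC mouse 9, 3 without naive mouse 1 or Cldn2TG CAC mouse 8 and 1 with all 9 mice. They also became 2 where every mouse had to have at least 10 counts, 4 on lane 1 alone and 3 on lane 2 alone. Beside the lower muscle, vessel and nerve lists, the 17 pan-epithelial markers summed to 25800 to 27600 CPM in naive mice and to 28100 to 33200 CPM in Cldn2TG CAC mice. The part of tissue sampling in these differences was not tested.

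**Figure D3:**
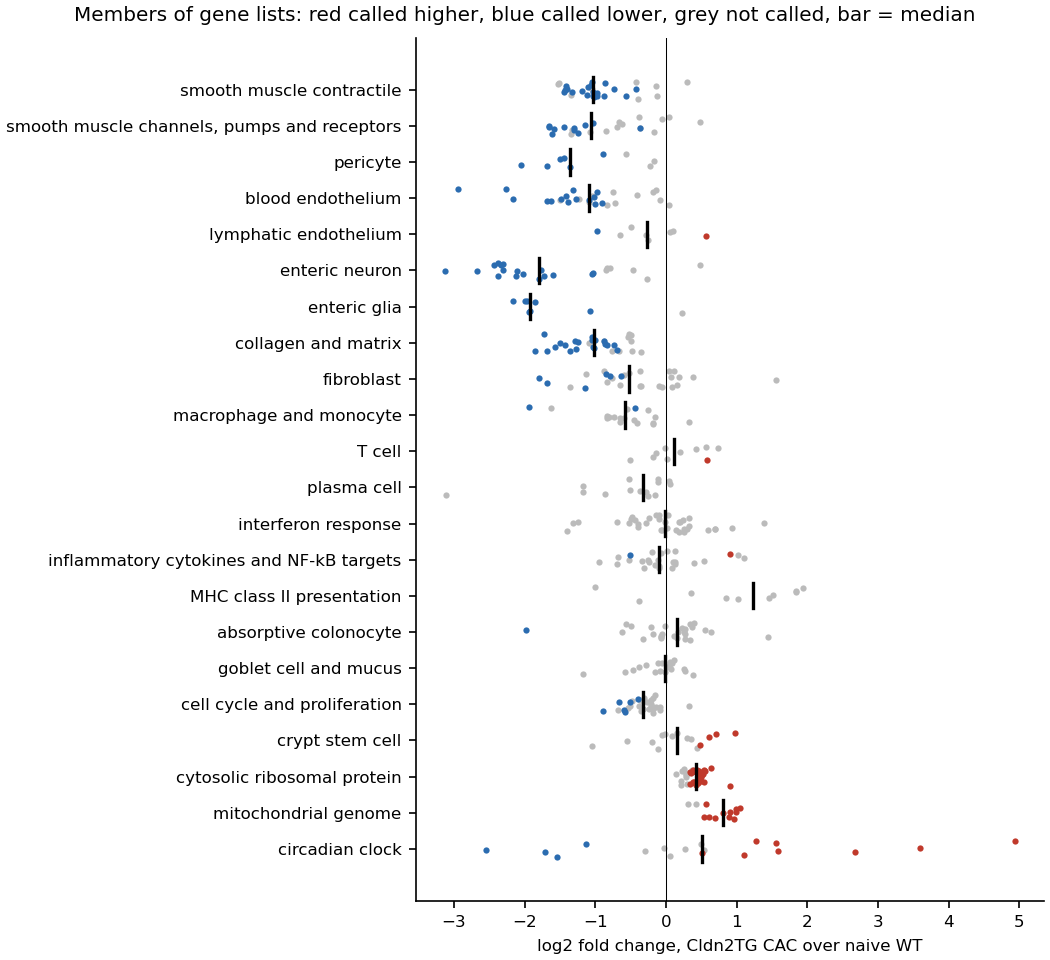
Log2 fold change of Cldn2TG CAC over naive WT colon (horizontal axis) for the tested members of 22 gene lists, with red points called higher, blue points called lower, grey points not called and a black bar at each list's median. Medians of the muscle, pericyte, blood endothelium, nerve, glia and matrix lists lie at or under -1.02, and that of the lymphatic endothelium list lies at -0.27. Those of the epithelial, interferon and inflammatory lists lie near 0.

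Clock genes differed from naive levels in both directions. Dbp, an output factor of the circadian clock, lay at 1.69, 1.86 and 1.39 CPM in naive mice and at 60.8, 50.4 and 39.7 CPM in Cldn2TG CAC mice, a 30.7-fold higher level (4.94 ± 0.20, adjusted p = 1.02e-06). Tef, a related factor, gave 14.8, 19.2 and 12.9 CPM against 112, 102 and 84.1 CPM (2.68 ± 0.16, adjusted p = 8.66e-05). Ciart, a repressor of the clock's activators, gave 0.348, 0.351 and 0.347 CPM against 3.31, 4.76 and 4.80 CPM (3.60 ± 0.31, adjusted p = 0.000309). Arntl, the core activator BMAL1, went down from 76.6, 90.8 and 76.9 CPM to 27.5, 24.6 and 31.9 CPM (-1.54 ± 0.12, adjusted p = 0.00018). Nfil3, which opposes Dbp at shared sites, gave 10.7, 8.13 and 9.29 CPM against 0.964, 1.57 and 2.29 CPM (-2.54 ± 0.28, adjusted p = 0.00108). Cry1, a repressor that peaks late in the cycle, gave 32.5, 34.3 and 31 CPM against 7.65, 7.40 and 15 CPM (-1.71 ± 0.25, adjusted p = 0.00581). In each gene the naive mice lay apart from all Cldn2TG CAC mice, and no call was lost without any 1 mouse.

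Of 18 clock genes that passed the filter, 8 were higher and 4 lower in Cldn2TG CAC colon (median 0.50), where 3.92% and 6.07% of all genes were. In WT CAC colon, which shares the naive mice, 10 were higher and 5 lower, where 8.04% and 6.92% of all genes were. WT CAC mice were further from naive for Ciart (22.7, 10.8 and 7.83 CPM) and Arntl (13.6, 12.2 and 8.44 CPM) and nearer to naive for Cry1 (20.8, 22.4 and 21.3 CPM). Between Cldn2TG CAC and WT CAC mice the direct test passed for Arntl (1.27 ± 0.20, adjusted p = 0.0103; 0.052 without mouse 8 and 0.0632 without mouse 9) and not for Dbp (-0.51 ± 0.27, adjusted p = 0.33). For Ciart (-1.71 ± 0.40, adjusted p = 0.0339) and Cry1 (-1.13 ± 0.27, adjusted p = 0.0347) it passed but was lost without any of 4 of the 6 mice (0.0623 to 0.136 for Ciart without mice 5, 7, 8 or 9, and 0.0794 to 0.132 for Cry1 without mice 5, 6, 7 or 8). Hours of tissue collection are not given in the sources used here.

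Upstream sequences of 3 clock genes are printed because they hold the E-box CACGTG, the site read by clock activators, in capitals, in genes that moved in both directions. They are the 250 bases before each start, 5′ to 3′, from RefSeq on GRCm38.p6, where 16 of the 19 list genes were found. Ciart, which rose, holds 3 boxes (chr3:95882229-95882478, minus strand). Tef, which rose, holds 1 (chr15:81802423-81802672, plus strand, 1 of 2 starts in the table). Cry1, which fell, holds 1 (chr10:85185055-85185304, minus strand).
Ciart: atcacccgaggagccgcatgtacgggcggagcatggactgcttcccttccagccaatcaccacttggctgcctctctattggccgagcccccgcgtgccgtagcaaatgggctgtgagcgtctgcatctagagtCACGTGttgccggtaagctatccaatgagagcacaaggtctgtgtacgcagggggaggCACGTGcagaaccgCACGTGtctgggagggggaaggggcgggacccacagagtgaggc
Tef: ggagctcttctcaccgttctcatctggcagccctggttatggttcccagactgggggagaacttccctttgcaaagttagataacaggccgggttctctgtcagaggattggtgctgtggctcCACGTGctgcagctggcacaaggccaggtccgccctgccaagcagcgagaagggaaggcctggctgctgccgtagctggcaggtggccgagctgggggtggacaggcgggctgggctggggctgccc
Cry1: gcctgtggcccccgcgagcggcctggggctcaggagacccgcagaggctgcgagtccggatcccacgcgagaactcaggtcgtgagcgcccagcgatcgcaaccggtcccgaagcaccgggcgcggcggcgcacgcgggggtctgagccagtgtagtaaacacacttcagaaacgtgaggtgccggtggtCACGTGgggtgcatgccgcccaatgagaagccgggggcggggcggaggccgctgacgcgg
The E-box, which reads the same on both strands, was found in 5 of the 16 list genes (31.2%), Per1, Tef, Ciart, Cry1 and Bhlhe41, and in 1854 of 27025 genes of the table (6.86%). Per1 holds a box and was not called (0.27, 95% interval -0.19 to 0.72). Matches describe these letters in this window only.

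**Figure D4:**
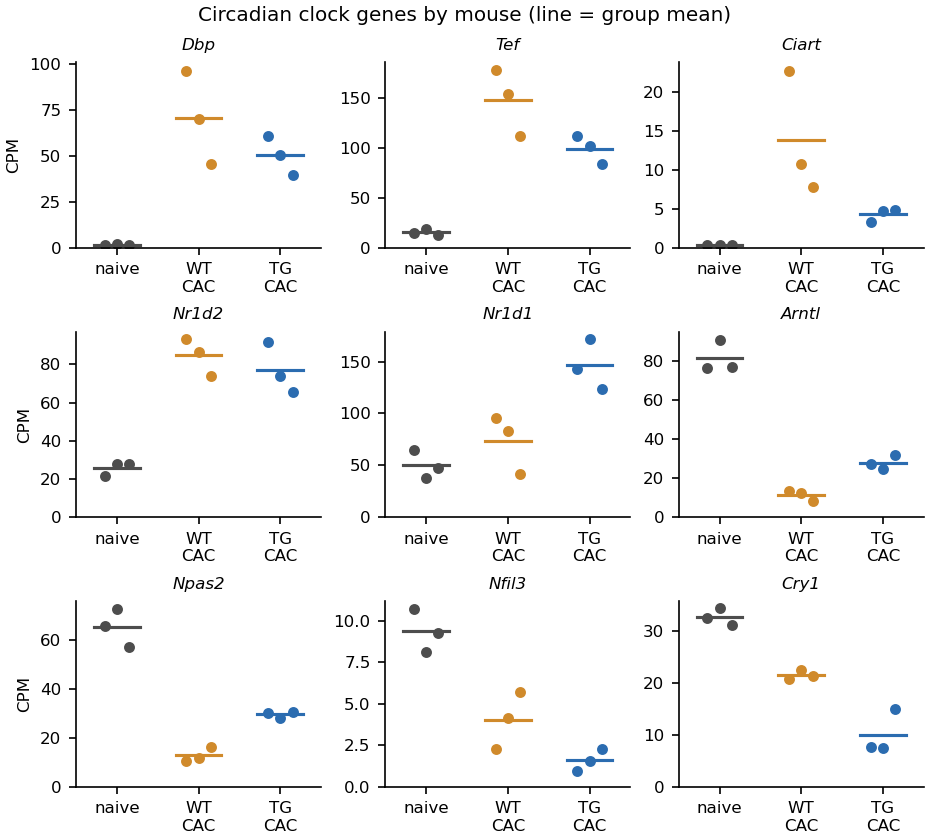
CPM of each mouse (points) and group mean (lines) for 9 circadian clock genes in naive WT, WT CAC and Cldn2TG CAC colon, each panel with its own axis from 0. Cldn2TG CAC mice lie above all naive mice for Dbp, Tef, Ciart, Nr1d2 and Nr1d1 and below them for Arntl, Npas2, Nfil3 and Cry1.

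Transcripts of the mitochondrial genome and of ribosomal proteins were higher. Of the 13 mitochondrially encoded genes of the respiratory chain, 11 rose, against 3.92% of all genes, with a median of 0.81. mt-Co1, a subunit of cytochrome oxidase, lay at 12100, 13600 and 10300 CPM in naive mice and at 21000, 20600 and 29500 CPM in Cldn2TG CAC mice (0.99 ± 0.16, adjusted p = 0.00634). mt-Cytb, of the bc1 complex, gave 5440, 6350 and 4930 CPM against 10400, 8940 and 11900 CPM (0.91 ± 0.13, adjusted p = 0.00391). All 3 transgenic mice exceeded all naive mice, and the summed level was 26100 to 32800 CPM against 45700 to 60800 CPM, with 33300 to 43100 CPM in WT CAC mice. Of 37 nuclear genes of the same respiratory chain 3 rose, against the same 3.92%, and none fell, while 33 log2 fold changes lay above 0 and 17 genes had separate groups in the higher direction (14.9% of all genes), at a median of 0.16. The 3 were Ndufb8, Uqcrq and Cox6c (0.37, 0.42 and 0.50), and all 3 calls were lost without mice 2, 3, 8 or 9 (adjusted p = 0.0611 to 0.127), that of Ndufb8 also without mouse 1 (0.059), and all 3 under library size alone. Of 40 cytosolic ribosomal protein genes, 29 rose, against 3.92% of all genes, none fell and 39 had separate groups in the higher direction, at a median of 0.42. Rps14 gave 743, 739 and 603 CPM against 1190, 1400 and 1300 CPM (0.91 ± 0.11, adjusted p = 0.00178). The 29 calls became 5 without Cldn2TG CAC mouse 8, 7 without naive mouse 3, 19 without mouse 9, 16 under library size alone and 4 with all 9 mice, while 11 mitochondrial genes were called in each of these settings but the fit of all 9 mice, which called 8.

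Short transcripts leaned higher and long ones lower. Coding genes were split by transcript length into 10 bins of equal size. In the shortest bin (204 to 1580 bases, 1346 genes) 11.1% were called higher and 4.38% lower, at a median of 0.15. In the longest bin (9181 to 41324 bases) 1.11% were called higher and 10.3% lower, at a median of -0.11. WT CAC colon gave the same medians for the longest bin (-0.11) and nearly so for the shortest (0.14). Ribosomal proteins have short transcripts, and the part of transcript length or RNA quality in the list counts was not tested.

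Epithelial genes were read in lists by cell type and function. None of 19 goblet cell and mucus genes was called and their median was -0.02. Of 27 absorptive colonocyte genes 1 was called, Tmigd1, an adhesion molecule of the brush border (-1.98 ± 0.47, adjusted p = 0.0431, lost without mice 1, 3, 7, 8 or 9 at 0.0542 to 0.145), and the median was 0.15, where 9 fell and 3 rose in WT CAC colon with a median of -0.64. Epcam, an adhesion molecule of all gut epithelium, gave 2230, 2350 and 2420 CPM against 2500, 2440 and 2640 CPM (0.12, 95% interval -0.07 to 0.32). Of 15 genes of the fetal-like state that follows injury, none was called (median -0.03), where WT CAC colon had 9 of 17 higher. In the WT CAC comparison 8.04% of all genes were higher and 6.92% lower. Of 17 pan-epithelial genes 2 rose, Krt8 and Cldn7 (0.43 and 0.31, adjusted p = 0.0384 and 0.0483), and 1 fell, Klf5 (-0.50, adjusted p = 0.0259), and the median was 0.12. Over all genes 3.92% were higher and 6.07% lower in Cldn2TG CAC colon. Krt8 was lost without mice 1, 2, 3, 8 or 9 (adjusted p = 0.0697 to 0.144), Cldn7 without any of the 6 (0.0559 to 0.131) and Klf5 without mice 2, 3, 8 or 9 (0.0603 to 0.102).

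Antimicrobial lectins and peptides are secreted by the epithelium against microbes. Of 15 listed genes of this kind that passed the filter 4 rose and none fell, where 3.92% of all genes were higher, 13 log2 fold changes lay above 0 and the median was 0.35. Saa2, a serum amyloid A protein made by gut epithelium, lay at 46.4, 44.4 and 50.3 CPM in naive mice and at 66.8, 70 and 68.3 CPM in Cldn2TG CAC mice (0.55 ± 0.09, adjusted p = 0.00693), and the call was lost on lane 1 alone (adjusted p = 0.441), on lane 2 alone (0.22) and with all 9 mice (0.0629), though not without any 1 mouse. Duoxa2, the maturation factor of a peroxide-producing oxidase, gave 36.6, 26.7 and 32.3 CPM against 49.4, 50.5 and 83.7 CPM (0.94 ± 0.22, adjusted p = 0.0347; 0.0853 without mouse 2 and 0.121 without mouse 3). The groups of both genes were separate. Reg4, a secreted lectin, also rose (0.49 ± 0.13, adjusted p = 0.0369, lost without mice 2, 3, 7, 8 or 9 at 0.0743 to 0.12), and Sprr2a2, which has near-identical copies that could share its reads, was the other (0.98 ± 0.21, adjusted p = 0.0197, lost without mice 2, 3 or 9 at 0.0567 to 0.0733). No member of the list was called with all 9 mice in 1 fit.

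Some epithelial and secretory genes were higher. Apob, the lipoprotein that gut epithelium uses to export fat, lay at 35.1, 43.5 and 33.5 CPM in naive mice and at 149, 112 and 138 CPM in Cldn2TG CAC mice (1.84 ± 0.14, adjusted p = 0.000153). Sycn, syncollin, a protein of secretory granules, gave 589, 803 and 543 CPM against 1680, 2380 and 1940 CPM (1.64 ± 0.17, adjusted p = 0.00148). WT CAC mice had 950, 361 and 218 CPM of Sycn. Lyz1, the lysozyme of Paneth cells, gave 3.14, 2.81 and 3.82 CPM against 13.5, 17.8 and 8.79 CPM (2.04 ± 0.26, adjusted p = 0.00227), while WT CAC mice reached 128, 172 and 998 CPM. The naive and Cldn2TG CAC groups were apart for all 3, and with all 9 mice in the fit the adjusted p was 0.106 for Sycn and 0.24 for Lyz1. The Paneth list summed the other way, to 1970 to 2620 CPM against 205 to 1810 CPM, because Mptx1 gave 2500, 2150 and 1850 CPM in naive mice and 67.8, 1360 and 1700 CPM in Cldn2TG CAC mice (-1.06, adjusted p = 0.627). Gm13736, a processed pseudogene at chr2:87526145-87526397 whose reads may belong to its parent gene, had 0 counts in the naive mice and 3.24, 2.99 and 2.66 CPM in Cldn2TG CAC mice, at least 20.2-fold above a floor of 3 counts in each naive library. WT CAC mice had 0, 0.0442 and 0 CPM of it.

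Of 15 crypt stem cell genes, 4 rose and none fell, where 3.92% of all genes were higher and 6.07% lower. Of the 15 log2 fold changes, 9 lay above 0 and 6 below, at a median of 0.16. Sox9, a factor of crypt progenitors, gave 72.9, 83.4 and 75 CPM against 126, 99.2 and 127 CPM (0.61 ± 0.12, adjusted p = 0.0109; 0.0542 with all 9 mice), and Prom1, a surface protein of crypt cells, gave 122, 113 and 163 CPM against 213, 198 and 236 CPM (0.71 ± 0.14, adjusted p = 0.0124). Ascl2 and Cdca7 were the other two. Of 20 Wnt target and feedback genes 3 rose, Ascl2, Notum and Wif1, and 3 fell, Sfrp1, Dkk3 and Sfrp5, against the same shares of all genes. Notum, a secreted Wnt inhibitor, lay at 0.149, 0.151 and 0.13 CPM in naive mice, at 0.62, 0.608 and 0.886 CPM in Cldn2TG CAC mice (2.24 ± 0.48, adjusted p = 0.017) and at 20.4, 36.3 and 98.3 CPM in WT CAC mice. Wif1, another, lay at 1.34, 1.21 and 0.782 CPM, at 2.82, 2.38 and 2.73 CPM (1.26 ± 0.29, adjusted p = 0.0236) and at 32.8, 104 and 198 CPM. The Notum levels of naive and Cldn2TG CAC mice rest on few counts. With all 9 mice in 1 fit, none of the 3 Wnt genes that rose was called, and the adjusted p of Notum was 0.29. Sfrp1, a Wnt-binding protein of stroma and muscle, fell from 6.02, 4.27 and 5.12 CPM to 1.38, 1.32 and 1.85 CPM (-1.76 ± 0.26, adjusted p = 0.00402). The calls of Notum, Wif1, Ascl2 and Cdca7 were each lost without Cldn2TG CAC mouse 8 (adjusted p = 0.0507, 0.0605, 0.0709 and 0.0709). Without naive mouse 3 the calls of Notum (0.0764), Wif1 (0.0969), Ascl2 (0.0649), Dkk3 (0.0543) and Sfrp5 (0.102) were lost. Without mouse 9 those of Notum (0.0639), Wif1 (0.0644), Dkk3 (0.064) and Sfrp5 (0.0761) were lost, and Sfrp5 was lost without any other mouse as well (0.0502 to 0.0658). Mouse 8 also decided Dkk3 (0.0545), mouse 7 also Wif1 (0.0521) and naive mouse 2 also Cdca7 (0.0581). Of 31 cell cycle genes 6 fell, against 6.07% of all genes, and none rose (median -0.32). Those calls became 12 with no filter on low counts, 0 without naive mouse 3 or with all 9 mice, and 2 without naive mouse 1 or Cldn2TG CAC mouse 9. Mki67, the proliferation antigen, was not called (161, 167 and 209 CPM against 134, 186 and 110 CPM).

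Of 26 inflammatory cytokines and NF-kB targets that passed the filter, 1 rose and 1 fell, against 3.92% and 6.07% of all genes, and the median was -0.10. In WT CAC colon 18 of 30 rose, against 8.04% of all genes, at a median of 1.87. Socs3, a feedback inhibitor of cytokine receptors, gave 7.61, 5.02 and 6.60 CPM against 9.64, 10.7 and 15.6 CPM (0.90 ± 0.22, adjusted p = 0.03) and 15.2, 108 and 54 CPM in WT CAC mice. Nfkbia, the inhibitor that NF-kB induces, gave 116, 110 and 133 CPM against 81.8, 93.5 and 75.9 CPM (-0.51 ± 0.11, adjusted p = 0.0181). Neither call held without each mouse, as Socs3 was lost without mice 2, 3, 8 or 9 (adjusted p = 0.0658 to 0.0956) and Nfkbia without mice 3 (0.0797) or 9 (0.0577). Il1b was not called, with an interval of -0.83 to 1.03 around 0.10, and neither was Lcn2, a neutrophil and epithelial marker of colitis, at 0.33 (95% interval -0.45 to 1.11). Nos2, the inducible nitric oxide synthase, lay at 5.57, 2.16 and 5.69 CPM in naive mice and at 9.64, 8.31 and 11.1 CPM in Cldn2TG CAC mice without overlap, and did not pass the test (1.11, 95% interval 0.39 to 1.83, adjusted p = 0.061).

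Of 18 macrophage and monocyte genes 2 fell, Cx3cr1 and Cd14, against 6.07% of all genes, and none rose, and the summed level was 195 to 229 CPM in naive mice, 130 to 182 CPM in Cldn2TG CAC mice and 255 to 529 CPM in WT CAC mice. Both calls were lost without naive mouse 3 (adjusted p = 0.106 and 0.124), Cldn2TG CAC mouse 8 (0.0968 and 0.088) or mouse 9 (0.076 and 0.0822), that of Cx3cr1 without naive mouse 1 (0.0717) and that of Cd14 without naive mouse 2 (0.07). Of 22 T cell genes only 10 passed the filter, 1 of them was called (Bcl11b, 0.58 ± 0.16, adjusted p = 0.0436, lost without mice 1, 2, 3, 7 or 8 at 0.0577 to 0.17), and the list summed to 25.3 to 31.4 CPM in naive and 34.6 to 38.3 CPM in Cldn2TG CAC mice. None of 14 B cell genes, 14 plasma cell genes or 35 interferon response genes was called. Of 16 genes of MHC class I presentation and the immunoproteasome 2 rose, against 3.92% of all genes, and none fell, 13 log2 fold changes lay above 0 and the median was 0.25. Tap2, a subunit of the peptide transporter, gave 36.3, 33.4 and 40.8 CPM against 45.2, 59.3 and 52.3 CPM (0.51 ± 0.12, adjusted p = 0.0259, lost without mice 1, 2, 8 or 9 at 0.0631 to 0.111), and H2-T23, a nonclassical class I chain, was the other (0.41 ± 0.11, adjusted p = 0.0415, lost without mice 1, 2, 7, 8 or 9 at 0.0806 to 0.123). None of the 10 tested MHC class II genes was called, but 7 had higher levels in every Cldn2TG CAC mouse than in any naive mouse, against 14.9% of all genes, their median was 1.23, and the list summed to 680 to 898 CPM in naive mice and 1160 to 2270 CPM in Cldn2TG CAC mice. Cd74, the invariant chain, gave 146, 74.8 and 263 CPM against 299, 969 and 459 CPM, a log2 fold change of 1.84 with a 95% interval of -0.04 to 3.72 (adjusted p = 0.2). Of 17 chemokines that passed the filter 2 rose, against 3.92% of all genes, and none fell. Of their log2 fold changes 10 lay below 0, at a median of -0.06. Cxcl5, a neutrophil chemokine, was 1 of the 2 and rose from 2.19, 1.56 and 1.74 CPM to 5.24, 5.52 and 5.17 CPM (1.54 ± 0.23, adjusted p = 0.00448; 0.45 when all 9 mice were fitted). WT CAC mice had 8.69, 165 and 151 CPM of it. The other was Cxcl16 (0.65 ± 0.16, adjusted p = 0.0275), whose call was lost without mice 2, 3, 7 or 9 (0.0574 to 0.117).

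**Figure D5:**
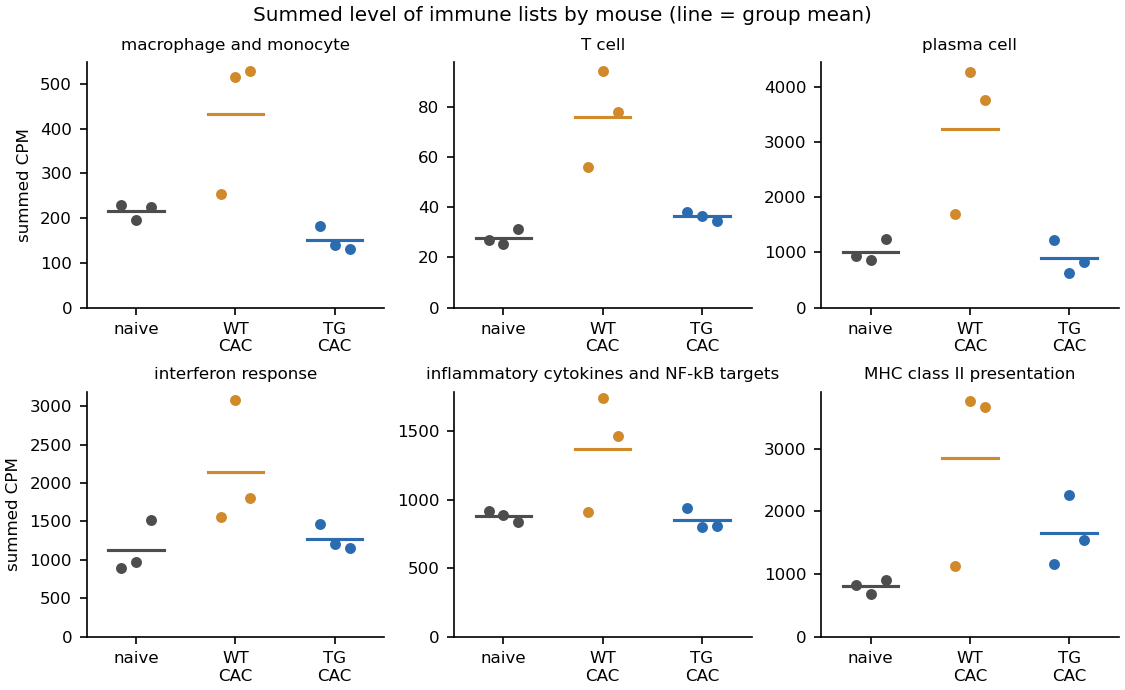
Summed CPM of 6 immune gene lists in each mouse (points) with the group mean (lines), for naive WT, WT CAC and Cldn2TG CAC colon, each panel with its own axis from 0. Cldn2TG CAC mice lie at 130 to 182 CPM for the macrophage list, under naive mice at 195 to 229 CPM, and at 1160 to 2270 CPM for the MHC class II list, above naive mice at 680 to 898 CPM.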

How the data were processed

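The authors deposited 1 table of raw read counts per gene and lane for 18 columns. The submitters' processing notes name HISAT2, featureCounts from Subread and GRCm38, while the study's methods name TopHat2, and versions and the strand setting are not given in the sources used here. Counts on lanes 1 and 2 were summed to 1 sample a library, taken as 1 mouse each. Names and positions came from GENCODE (GRCm38). Groups came from the genotype and treatment labels, although the protocol text of naive samples also names AOM and DSS. Genes were tested with edgeR 4.0.16 (quasi-likelihood F test, trimmed-mean normalisation, at least 10 counts in enough mice and 15 in all, two-sided, Benjamini-Hochberg adjusted p under 0.05) in R 4.3.3 on the 6 compared mice, and standard errors and 95% intervals were taken from that fit. WT CAC against naive and Cldn2TG CAC against WT CAC were fitted alike. CPM used factors over all 9 mice. DESeq2 1.42.0, other normalisations, filters, single lanes, all 9 mice and leaving out each mouse were alternatives.

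Named genes were Cldn2, sex-linked genes, the most displaced, most significant and most abundant changes in each direction, and set numbers of members of each list. The compared groups, lists and rule were chosen with earlier results of these data known. The labels do not say that libraries of a group came from separate animals, so p-values measure the spread between these libraries. Genes that share reads with near copies are uncertain.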

Additional observations from a re-analysis of the deposited data

How the results depend on the processing

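Against 1501 genes called (589 higher, 912 lower), no filter on low counts gave 2567 (1022 and 1545), all 9 mice in 1 fit 445 (116 and 329), a log2 change of at least 1 gave 683 (93 and 590), library size alone 276 higher, and lane 2 alone 596 lower. Leaving out 1 mouse at a time gave 525 to 1383 calls (178 to 585 higher, 347 to 803 lower), 7 to 24 smooth muscle genes lower and 6 to 12 endothelium genes lower. Smooth muscle genes called lower numbered 3 with all 9 mice and 13 at a log2 change of at least 1, and endothelium genes 7 with all 9 mice. For WT CAC against naive colon, calls ran from 135 to 4080. DESeq2 called 1794 genes, 1428 of them shared with the 1501. Of 94 named genes that were called, 34 were called under every one of these alternatives, the minimum log2 change aside, a further 6 under every one that tested them, and none reversed its direction, and of 22 that were not called 9 passed under at least 1. The causes of these shifts were not tested. No paired analysis was possible because the groups compared share no replicate numbers. Depth limits genes under about 1 CPM, where 3 counts are 0.136 to 0.202 CPM in the compared mice.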

Other observations

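Of 22 glycolysis and hypoxia genes 5 rose and none fell, where 3.92% of all genes were higher, all 22 log2 fold changes lay above 0 at a median of 0.32, and 12 genes had separate groups in the higher direction, as did 14.9% of all genes. Bnip3, a mitophagy receptor that hypoxia induces, went from 11.1, 11 and 9.64 CPM in naive mice to 36.9, 20.9 and 19.6 CPM in Cldn2TG CAC mice (1.29 ± 0.24, edgeR adjusted p = 0.0125). The others were Pgk1, Pkm and Car9 (0.41, 0.43 and 0.36) and Vegfa (0.46). The list held 1 call under library size alone, with all 9 mice or without mouse 8, and none without naive mouse 3, where Bnip3 had an adjusted p of 0.0533. Without 1 mouse the lost calls of Pgk1, Pkm, Car9 and Vegfa had adjusted p-values of 0.0537 to 0.128. Of 19 Hox and positional genes 3 rose (against 3.92% of all genes), Hoxd13, Hoxd11 and Hoxd10, which mark the rear end of the gut. Hoxd13 lay at 143, 165 and 134 CPM in naive mice and at 248, 212 and 223 CPM in Cldn2TG CAC mice (0.63 ± 0.11, edgeR adjusted p = 0.00691; 0.0635 with all 9 mice), with 256, 229 and 163 CPM in WT CAC mice. Hoxd11 was lost without naive mouse 3 (adjusted p = 0.0543) and Hoxd10 without mice 3, 7 or 8 (0.0643 to 0.0939). Against 6.07% of all genes called lower, 1 of 16 enteroendocrine genes was called, Sst, the hormone somatostatin. It fell from 14.7, 10.2 and 13.8 CPM to 4.34, 4.21 and 3.99 CPM (-1.62 ± 0.19, adjusted p = 0.00148), and WT CAC mice had 9.09, 3.76 and 5.22 CPM.

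None of 22 fatty acid oxidation and ketogenesis genes was called (median 0.00), where 3.92% of all genes were higher and 6.07% lower. In WT CAC colon 9 of them were lower, against 6.92% of all genes. None of 24 cholesterol synthesis genes and none of 12 adipocyte genes was called, with medians of 0.19 and -0.55. Hao2, a peroxisomal oxidase, had 1 of the largest falls in CPM, from 670, 697 and 637 CPM to 374, 340 and 360 CPM (-0.89 ± 0.09, adjusted p = 0.000751; 0.185 with all 9 mice), and lay lower still in WT CAC mice at 183, 74.2 and 63.5 CPM. Ly6g, counted among neutrophil markers, rose from 207, 197 and 137 CPM to 302, 350 and 331 CPM (0.87 ± 0.15, adjusted p = 0.00881). Only 3 of the 17 neutrophil markers passed the filter on low counts, and Ly6g supplied nearly all of the list's sum.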
